A study of Mus musculus with 24 samples.

Results

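The nuclear genes for the mitochondrial ribosome and for the import of proteins into mitochondria were compared in perigonadal fat of AdipoQ-LPL and Control mice. A gene was taken where its symbol starts with Mrpl, Mrps, Timm or Tomm followed by a digit and is not marked as a pseudogene. This gave 98 of the 24647 genes with a symbol on the array, and they were treated as a mitochondrial ribosome list of 76 genes (47 of the large subunit, Mrpl, and 29 of the small subunit, Mrps) and a protein import list of 22 genes (12 Timm and 10 Tomm). All mice were C57BL/6 males that ate a diet with 60% of calories from fat for 10 days, starting at 9.5 weeks of age. The 12 AdipoQ-LPL mice carried 1 copy of a transgene in which the adiponectin promoter, active in adipocytes, drives lipoprotein lipase (LPL), the enzyme that frees fatty acids from circulating triglyceride, and the 12 Control mice were littermates without it. RNA of each mouse was hybridised to its own Affymetrix mouse array, and all values below are RMA log2 values, so that a difference of 1 is a factor of 2.

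Mitochondria keep a small genome whose protein products are all core subunits of the respiratory chain and the ATP synthase, and a dedicated ribosome in the matrix makes them. The proteins of that ribosome, like nearly all other mitochondrial proteins, are made in the cytosol and brought in. They enter through the TOM complex of the outer membrane, and from there pass into the matrix through the TIM23 complex or into the inner membrane through the TIM22 complex, with the small Timm proteins as chaperones between the membranes. In white fat these genes are known to accompany mitochondrial biogenesis and the capacity of adipocytes to oxidise fuel.

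The animal numbers in the labels fall into a lower run, 289 to 437 (run 1, with 8 AdipoQ-LPL and 5 Control mice), and a higher run, 842 to 877 (run 2, with 4 AdipoQ-LPL and 7 Control mice). Run 1 itself falls into numbers 422 to 437, which are 6 AdipoQ-LPL mice, and 289 to 295, which are 2 AdipoQ-LPL and all 5 Control mice, so for most of its AdipoQ-LPL mice genotype and number stretch cannot be told apart. The array medians lay between 7.22 and 7.29 in run 2 and between 6.86 and 6.97 in run 1, so the genotypes were compared with the run as a block and within each run. All 98 genes passed the floor, a mean of at least 5 in either genotype, together with 20208 clusters of all kinds. The members shared the shift between the runs, with a median of 0.34 for the ribosome list, 0.29 for the import list and 0.33 for all clusters, and 67 of 76 and 18 of 22 were called higher in run 2, where 81.9% of all clusters were, while none was called lower (1.04%). Adipocyte markers were all 7 measured, with means per mouse between 11.95 and 12.45. Lpl itself was not called, at -0.024 ± 0.036 (SE, adjusted p = 0.86 by limma), and a second cluster of the gene at 0.057 ± 0.095 (SE).

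The choice of promoter stretches rested partly on whether they hold a searched motif, so they do not stand for all members. Those shown here belong to the genes of lowest p in each list (Timm9, Mrps18b, Mrpl40), to the partner that Timm9 assembles with (Timm10) and to Mrpl17, one of the genes most closely tied to the rest of the ribosome list from mouse to mouse. Each runs 5′ to 3′ over 300 bases, from 250 before to 50 after the RefSeq start, with matches to 3 motifs of nuclear respiratory regulation in capitals: NRF1 (GCGCA, any base, then GCGC), GABP, also called NRF2 (CCGGAAG), and YY1 (AAGATGGCG), each searched on both strands.
Timm9: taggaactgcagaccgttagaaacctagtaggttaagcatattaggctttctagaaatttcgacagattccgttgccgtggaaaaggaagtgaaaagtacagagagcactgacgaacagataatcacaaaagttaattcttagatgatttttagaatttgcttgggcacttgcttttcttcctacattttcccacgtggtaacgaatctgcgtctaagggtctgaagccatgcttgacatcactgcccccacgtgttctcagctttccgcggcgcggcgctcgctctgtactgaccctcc
Timm10: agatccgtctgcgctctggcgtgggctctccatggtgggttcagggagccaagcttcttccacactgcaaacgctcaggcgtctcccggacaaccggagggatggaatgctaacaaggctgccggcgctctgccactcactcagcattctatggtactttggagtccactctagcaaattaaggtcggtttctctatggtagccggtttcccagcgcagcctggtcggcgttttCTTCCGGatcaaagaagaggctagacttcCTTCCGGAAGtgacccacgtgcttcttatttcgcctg
Mrps18b: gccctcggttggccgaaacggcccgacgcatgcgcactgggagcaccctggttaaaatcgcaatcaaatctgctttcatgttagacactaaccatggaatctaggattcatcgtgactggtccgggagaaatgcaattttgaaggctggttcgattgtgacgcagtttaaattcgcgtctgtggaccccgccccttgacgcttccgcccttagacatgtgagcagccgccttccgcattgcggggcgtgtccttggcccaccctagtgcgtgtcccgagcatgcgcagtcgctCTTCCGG
Mrpl40: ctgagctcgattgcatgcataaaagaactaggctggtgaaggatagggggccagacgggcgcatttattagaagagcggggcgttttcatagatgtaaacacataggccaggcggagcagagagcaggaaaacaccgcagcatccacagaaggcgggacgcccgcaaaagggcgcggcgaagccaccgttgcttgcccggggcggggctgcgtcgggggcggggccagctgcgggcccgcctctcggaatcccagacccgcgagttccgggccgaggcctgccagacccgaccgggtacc
Mrpl17: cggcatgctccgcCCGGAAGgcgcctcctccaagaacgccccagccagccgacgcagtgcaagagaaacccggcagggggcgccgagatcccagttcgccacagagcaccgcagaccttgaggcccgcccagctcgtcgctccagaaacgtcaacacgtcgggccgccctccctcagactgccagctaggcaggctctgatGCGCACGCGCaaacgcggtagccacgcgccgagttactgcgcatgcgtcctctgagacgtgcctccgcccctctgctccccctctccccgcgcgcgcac
In GRCm38.p6 these stretches are chr12:71136626-71136925 (minus strand), chr2:84826771-84827070 (plus), chr17:35916391-35916690 (minus), chr16:18876588-18876887 (minus) and chr7:105811038-105811337 (minus). The Timm9 and Mrpl40 stretches held no match, the Timm10 stretch held GABP matches that overlap head to head, and the Mrpl17 stretch held both an NRF1 and a GABP match.

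With the run as a block, none of the 98 genes differed between genotypes at an adjusted p under 0.05, where 0.0099% of all clusters did (2 of 20208). Without adjustment, 1 ribosome gene (Mrpl40) was higher and 1 (Mrps18b) lower in AdipoQ-LPL fat at p under 0.05, and 1 import gene (Timm9) was lower, against 5.87% of all clusters higher and 2.5% lower. The median difference was -0.0077 for the ribosome list and -0.035 for the import list, and 0.0072 over all clusters. Differences lay below 0 for 44 of 76 ribosome genes and 16 of 22 import genes, and for 46.3% of all clusters. Without the block, where the unequal share of the runs in each genotype is left in, 71 of 76 and 21 of 22 genes lay below 0 (78.9% of all clusters), 2 of each list were lower at an unadjusted p under 0.05 (4.74% of all clusters) and none higher (0.891%). In whole tissue a lower value cannot be told apart as fewer cells of a type or less RNA in each.

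Timm9, which forms a ring-shaped chaperone with Timm10 in the space between the membranes, had the lowest p of all members. In run 1 its values in AdipoQ-LPL mice were 5.98 at the lowest, 6.27 at the median and 6.44 at the highest, and those in Control mice were 6.70, 6.92, 6.45, 6.69 and 6.53. Every AdipoQ-LPL mouse of that run thus lay below every Control mouse, which held for no other member and for 0.173% of all clusters, while the opposite order held for no member and 0.178%. In run 2 the AdipoQ-LPL mice had 6.43, 6.66, 6.72 and 6.89, and the Control mice 6.47 at the lowest, 6.90 at the median and 6.98 at the highest. There the groups overlapped, and 11 of the 12 AdipoQ-LPL mice in all lay below the Control mean of their own run. The difference was -0.28 ± 0.074 (SE) with the run as a block, with a 95% interval of -0.43 to -0.12, an unadjusted p of 0.0010 and an adjusted p of 0.44. Within run 1 it was -0.39 ± 0.090 (SE, adjusted p = 0.34) and within run 2 -0.14 ± 0.11 (SE). Within run 1 without the mice numbered 422 to 437 it was -0.36 ± 0.14 (SE, adjusted p = 1.00), from AdipoQ-LPL values of 6.44 and 6.16. Leaving out single mice moved the blocked value between -0.32 and -0.23.

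**Figure D1:**
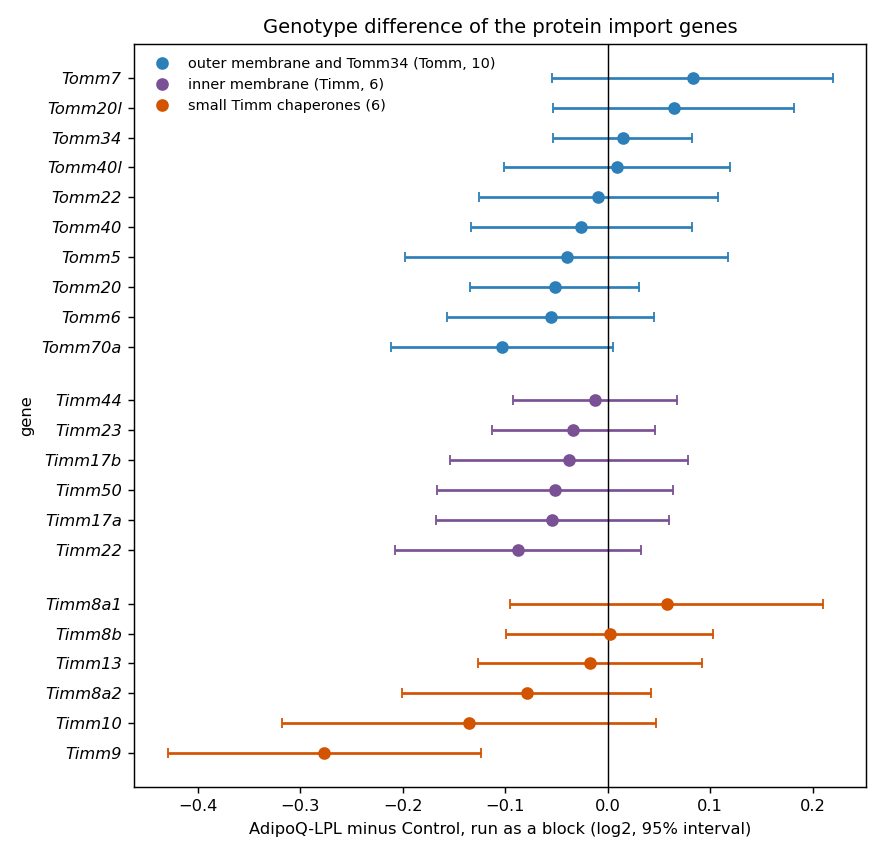
Genotype difference of each of the 22 protein import genes, AdipoQ-LPL minus Control on the log2 scale with the run as a block. Points are limma estimates over 24 mice and bars 95% intervals; the interval of Timm9, -0.43 to -0.12, is the only one of these 22 that does not reach 0.

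Timm10, the partner of Timm9, had differences of opposite sign in the runs. In run 1 its AdipoQ-LPL values were 6.56 at the lowest, 6.84 at the median and 7.07 at the highest, and its Control values were 7.25, 7.49, 6.96, 6.99 and 7.17. In run 2 its AdipoQ-LPL values were 7.58, 7.25, 7.59 and 7.39, and its Control values 7.00 at the lowest, 7.33 at the median and 7.59 at the highest. Several AdipoQ-LPL mice of run 1 lay below every Control mouse, while in run 2 the groups overlapped. The difference was -0.14 ± 0.088 (SE, adjusted p = 0.68) with the run as a block, 0.11 ± 0.10 (SE) within run 2 and -0.34 ± 0.11 (SE) within run 1. The change of the genotype difference from run to run was 0.45 ± 0.15 (SE), with an unadjusted p of 0.0082 for the interaction and an adjusted p of 0.60.

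The other small Timm chaperones, which carry hydrophobic carriers and barrel proteins past the outer membrane, showed no common direction with the run as a block. Timm8a2 stood at -0.079 ± 0.059, Timm13 at -0.017 ± 0.053, Timm8b at 0.0020 ± 0.049 and Timm8a1 at 0.058 ± 0.074 (SE each). The signs of Timm8b and Timm13 turned when single mice were left out. Timm8a1, the mouse counterpart of the gene lost in a human deafness and dystonia syndrome, had 7.38, 7.50, 7.51 and 7.31 in AdipoQ-LPL mice of run 2, and 7.06 at the lowest, 7.20 at the median and 7.28 at the highest in Control mice. Those groups did not overlap, which held for 1.05% of all clusters with AdipoQ-LPL above, and the difference within that run was 0.24 ± 0.064 (SE). In run 1 the groups overlapped in the same cluster, at -0.094 ± 0.11 (SE). The cluster of lowest mean of the gene (5.44, near the floor of 5) lay close to it. It stood at 0.051 with the run as a block, 0.21 within run 2 and -0.081 within run 1. The remaining cluster of Timm8a1, with a higher mean of 6.17, stood at -0.36 with the run as a block (unadjusted p = 0.039 by limma). It was below 0 in both runs, at -0.19 within run 2 and -0.50 within run 1. The clusters of Timm8a1 thus did not share a direction.

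Of the inner membrane machinery, all 6 genes had differences below 0 with the run as a block, none at an unadjusted p under 0.05. Timm22, the channel that inserts carriers into the inner membrane, stood at -0.088 ± 0.058 (SE). Timm17a, Timm17b, Timm23 and Timm50 of the TIM23 channel and Timm44, which tethers the import motor to it, stood between -0.054 and -0.012. Timm17a had the lowest interaction p of these, at 0.10 ± 0.080 (SE) in run 2 and -0.18 ± 0.061 (SE) in run 1 (unadjusted p = 0.0081).

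In the outer membrane, the receptor Tomm70a, which takes in carrier proteins, stood at -0.10 ± 0.053 (SE, adjusted p = 0.61), with 11 of 12 AdipoQ-LPL mice below the Control mean of their run. Tomm20, the receptor for presequences, stood at -0.052 ± 0.040 and Tomm22, the central receptor, at -0.0090 ± 0.056 (SE each). The channel Tomm40 stood at -0.026 ± 0.052 and its relative Tomm40l at 0.0092 ± 0.053 (SE each). The small subunits that stabilise the channel were spread, with Tomm7 at 0.083 ± 0.066, Tomm5 at -0.040 ± 0.076 and Tomm6 at -0.056 ± 0.049 (SE each). Tomm34, a cytosolic cochaperone, stood at 0.015 ± 0.033 (SE), and it shifted between the runs by -0.025, against the median of 0.29 for its list.

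Mrps18b, one of the small subunit proteins related to bacterial S18, had the lowest p of the ribosome list. In run 1 its AdipoQ-LPL values were 7.56 at the lowest, 7.83 at the median and 7.94 at the highest, and its Control values were 8.14, 8.37, 7.93, 8.18 and 8.14. A single Control mouse, replicate 3, lay among the AdipoQ-LPL mice of that run. In run 2 its AdipoQ-LPL values were 7.95, 8.18, 8.20 and 8.19, and its Control values 7.88 at the lowest, 7.96 at the median and 8.43 at the highest, with full overlap. The difference was -0.18 ± 0.080 (SE, adjusted p = 0.57) with the run as a block, 0.022 ± 0.12 (SE) within run 2 and -0.35 ± 0.079 (SE, adjusted p = 0.34) within run 1. Within run 1 without the mice numbered 422 to 437 it was -0.34 ± 0.13 (SE). The second cluster of Mrps18b stood at -0.12 with the run as a block.

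Mrpl40, a large subunit protein that bacteria lack, stood higher. In run 2 its AdipoQ-LPL values were 8.22, 8.06, 8.23 and 8.34, and its Control values 7.87 at the lowest, 8.06 at the median and 8.18 at the highest. In run 1 they were 7.72, 7.83 and 7.94 at the lowest, median and highest AdipoQ-LPL mouse, and 7.80, 7.73, 7.67, 7.87 and 7.89 in Control mice. The groups overlapped in both runs. The difference was 0.099 ± 0.044 (SE, adjusted p = 0.58), with an interval of 0.0084 to 0.19.

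**Figure D2:**
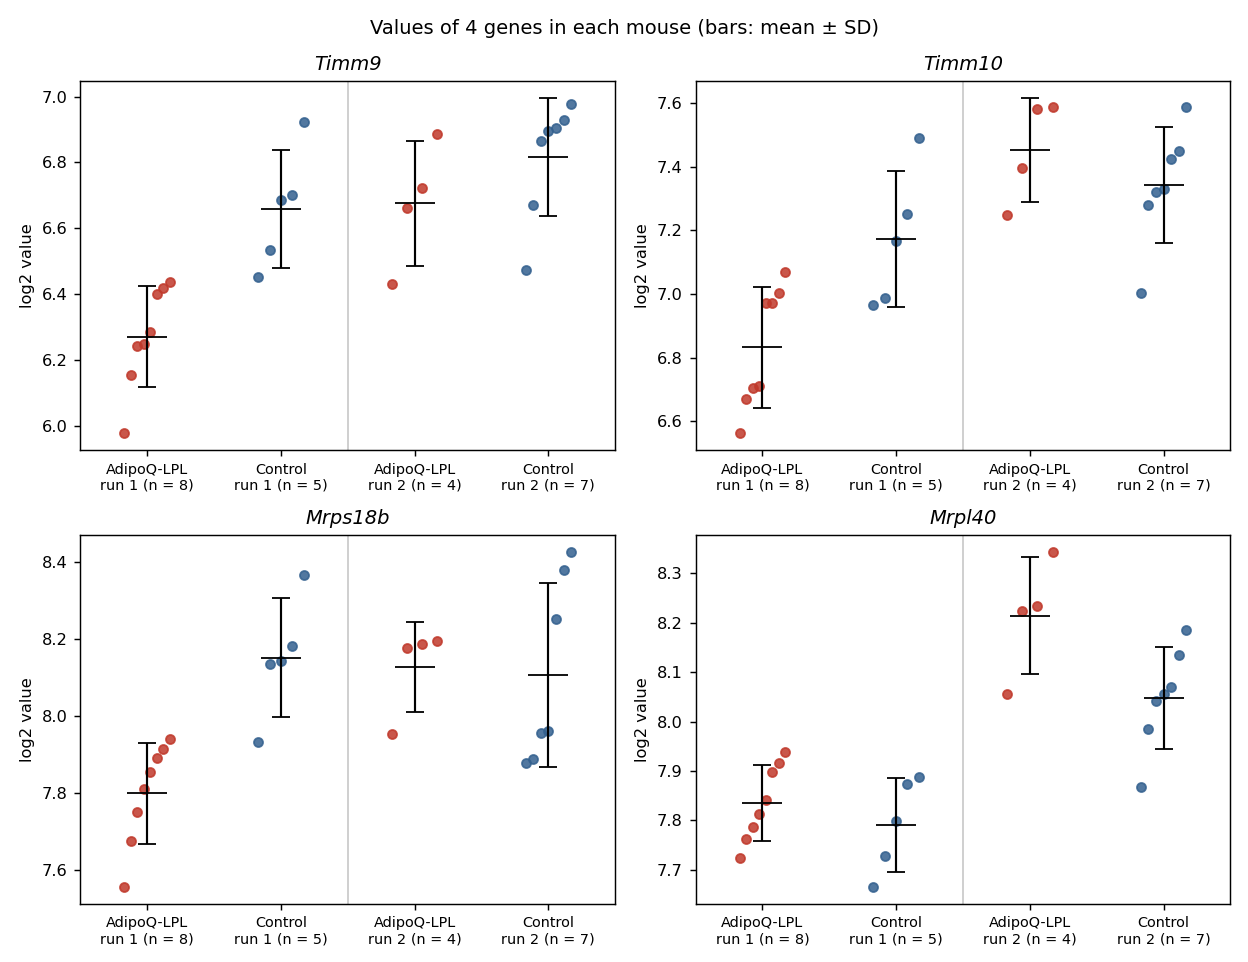
Log2 values of Timm9, Timm10, Mrps18b and Mrpl40 in each mouse, by genotype and run. Points are mice and bars the mean ± SD; the AdipoQ-LPL mice of run 1 lie at or below 6.44 for Timm9 and the Control mice of that run at or above 6.45.

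The other ribosome genes of lowest p were Mrpl2 at -0.092 ± 0.052, Mrpl17 at -0.087 ± 0.056, Mrps21 at -0.076 ± 0.052, Mrpl52 at -0.067 ± 0.048 and Mrpl21 at -0.055 ± 0.044 below 0 (SE each). Above 0 they were Mrps34 at 0.086 ± 0.061, Mrps16 at 0.090 ± 0.071, Mrps33 at 0.060 ± 0.054, Mrpl14 at 0.065 ± 0.065 and Mrps36 at 0.062 ± 0.064 (SE each). Mrpl2, Mrpl14, Mrpl17, Mrpl21, Mrps16 and Mrps21 have bacterial relatives, while Mrps33, Mrps34 and Mrpl52 are proteins of the mitochondrial ribosome alone. Mrps36 keeps its ribosomal name, but its protein is now placed in the 2-oxoglutarate dehydrogenase complex. Mrps27, an RNA-binding small subunit protein, stood at 0.00028 ± 0.062 (SE). The 2 clusters of Mrps16 had opposite signs, at 0.090 and -0.13.

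Large and small subunits did not part, with a median of -0.0083 over 47 genes and -0.0044 over 29 genes. Over all 76 ribosome genes the differences spanned -0.18 to 0.099, and over the 22 import genes -0.28 to 0.083. The residual SD between mice had a median of 0.12 for the ribosome list and 0.13 for the import list, against 0.16 for all clusters.

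Within each run most members lay on one side of 0, and the side differed between the runs. In run 2 the median difference was 0.055 for both lists and 0.022 for all clusters, with 61 of 76 ribosome genes and 16 of 22 import genes above 0, against 57.5% of all clusters. In run 1 the median was -0.068 for the ribosome list, -0.094 for the import list and -0.0029 for all clusters, with 65 of 76 and 21 of 22 genes below 0, against 51.1% of all clusters. At an unadjusted p under 0.05, 5 ribosome genes and 1 import gene were higher in AdipoQ-LPL mice of run 2, against 6.5% of all clusters, and 8 ribosome genes and 6 import genes were lower in those of run 1, against 3.96%. None was lower in run 2 (2.88% of all clusters) and none higher in run 1 (4.14%), and after adjustment no member was called in either run, where 0.00495% of all clusters were in run 2 and 0.0099% in run 1.

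**Figure D3:**
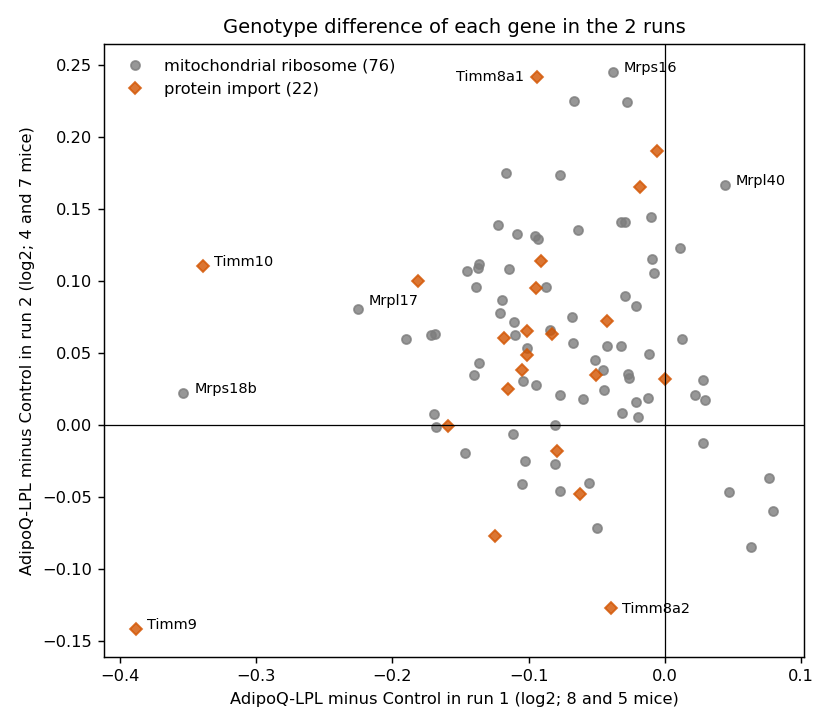
Genotype difference of each of the 98 genes in run 1 (horizontal) and in run 2 (vertical), AdipoQ-LPL minus Control on the log2 scale. Grey circles are ribosome genes and orange diamonds import genes; 55 of 76 and 15 of 22 lie above 0 in run 2 and below 0 in run 1, with Timm9 below 0 in both runs.

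Both signs together, above 0 in run 2 and below 0 in run 1, were found for 55 of 76 ribosome genes and 15 of 22 import genes, and for 28.6% of all clusters. The interaction of genotype and run lay above 0 for 68 of 76 and 21 of 22 genes, against 55.8% of all clusters, and passed an unadjusted p of 0.05 there for 10 and 5 genes, against 5.2%, and below 0 for none (2.75%). After adjustment it was called for no member and for 0% of all clusters, so a difference between the runs was not established for any single gene. The members share arrays and vary together from mouse to mouse, so these counts are not 98 separate observations. Among the ribosome genes Mrpl17 had the lowest interaction p (0.0038 unadjusted), at 0.081 ± 0.068 in run 2 and -0.23 ± 0.068 in run 1 (SE each). Mrps16 was the 1 ribosome gene of 76 whose groups did not overlap in run 2, with AdipoQ-LPL above, which held for 1.05% of all clusters. It had 8.13, 8.20, 8.14 and 8.14 in AdipoQ-LPL mice, and 7.49 at the lowest, 7.92 at the median and 8.11 at the highest in Control mice. The difference within run 2 was 0.24 in this cluster and 0.048 in the second cluster of Mrps16.

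**Figure D4:**
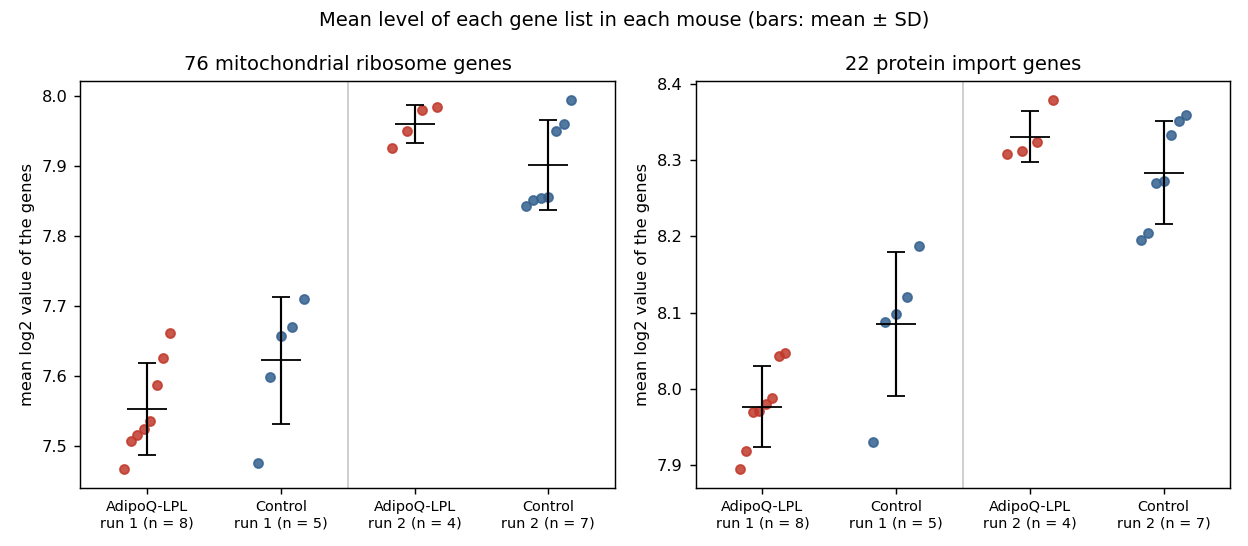
Mean log2 value of the 76 ribosome genes (left) and the 22 import genes (right) in each mouse, by genotype and run. Points are mice and bars the mean ± SD; within each run the AdipoQ-LPL mice lie inside or close to the range of the Control mice.

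The counts within runs moved with single mice and with the number stretch. The mean over the ribosome genes was 7.55 ± 0.066 in AdipoQ-LPL and 7.62 ± 0.091 in Control mice of run 1 (SD, n = 8 and 5), and the mean over the import genes was 7.98 ± 0.053 in AdipoQ-LPL and 8.08 ± 0.095 in Control mice. In run 2 the ribosome means were 7.96 ± 0.027 in AdipoQ-LPL and 7.90 ± 0.064 in Control mice (SD, n = 4 and 7), and the import means 8.33 ± 0.033 in AdipoQ-LPL and 8.28 ± 0.068 in Control mice. In run 1 Control replicate 2 had the highest mean of both lists, 7.71 and 8.19, and Control replicate 3 the lowest of its genotype, 7.48 and 7.93. Without Control replicate 2, the genes lower in run 1 at an unadjusted p under 0.05 were 2 of 76 in the ribosome and 3 of 22 in the import list (2.44% of all clusters), and without Control replicate 3 they were 17 and 8 (7.02%). The share over all clusters thus moved in the same direction as the members' counts. The interaction passed that p above 0 for 5 ribosome genes without Control replicate 2 (3.51% of all clusters) and 23 without Control replicate 3 (9.23%), and for 2 import genes without Control replicate 5 (4.25%) and 8 without Control replicate 3. Without the AdipoQ-LPL mice numbered 422 to 437 the shift of run 1 was no longer seen in the ribosome list, with a median of -0.0011 and 38 of 76 genes below 0, while the import list had a median of -0.069 and 17 of 22 below 0 (all clusters 0.0067 and 47.5%). There 2 ribosome genes and 1 import gene were lower at an unadjusted p under 0.05 (0.92% of all clusters), and the interaction passed that p above 0 for 2 ribosome genes and 1 import gene (1.91%). With the run as a block, 20 of 76 and 9 of 22 genes then lay below 0, as did 41.8% of all clusters.

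Markers of other cells stood apart in some of the same mice. Epididymis markers, 5 of 6 measured, had means of 4.59 to 4.95 in AdipoQ-LPL and 4.69 to 7.45 in Control mice of run 1, and 5.13 to 5.64 in AdipoQ-LPL and 4.76 to 8.31 in Control mice of run 2, with Control replicates 5, 6 and 9 high. Of those mice only Control replicate 5 is in run 1. Without it the genes lower in run 1 at an unadjusted p under 0.05 were 4 in each list (3.1% of all clusters). Without all 3 mice the interaction passed above 0 for 10 ribosome and 2 import genes (4.18%). Macrophage markers, 5 of 6 measured, had means of 9.73 to 10.26 in AdipoQ-LPL and 9.08 to 9.85 in Control mice of run 1. In run 2 they had 9.74 to 10.13 in AdipoQ-LPL and 9.62 to 10.07 in Control mice. All 5 genes were above 0 in both runs, with 3 at an unadjusted p under 0.05 in run 1 and 0 in run 2 (limma). At that p 4.14% of all clusters were higher in run 1 and 6.5% in run 2. The mouse lowest in macrophage markers, Control replicate 3, was also lowest in adipocyte markers. Brown or beige adipocyte markers, 4 of 5 measured, had means of 6.14 to 6.64 in AdipoQ-LPL and 6.00 to 6.79 in Control mice of run 2, and 5.33 to 5.90 in AdipoQ-LPL and 5.34 to 5.86 in Control mice of run 1. The brown or beige markers differed by 0.12 in run 2 and -0.021 in run 1, with 4 and 3 genes above 0. Erythroid markers, 2 of 3 measured, differed by 0.18 in run 2 and -0.063 in run 1, with 2 and 0 genes above 0. Adipocyte markers differed by 0.077 in run 2 and 0.0030 in run 1. The difference of B cell, mesothelium and T cell markers also had opposite signs in the runs, below 0 in run 2 and above 0 in run 1. B cell markers, 4 of 4 measured, had means of 5.87 to 6.32 in AdipoQ-LPL and 5.98 to 7.89 in Control mice of run 2, and 5.50 to 6.43 in AdipoQ-LPL and 5.55 to 5.84 in Control mice of run 1, with all 4 genes below 0 in run 2 and above 0 in run 1. Of them 3 passed an unadjusted p under 0.05 in run 2 (limma), where 2.88% of all clusters were lower at that p. Mesothelium markers, 5 of 5 measured, differed by -0.21 in run 2 and 0.29 in run 1, and all 5 genes were below 0 in run 2 and above 0 in run 1. Their means were 7.61 to 8.73 in AdipoQ-LPL and 7.19 to 8.94 in Control mice of run 2, and 7.76 to 8.74 in AdipoQ-LPL and 7.78 to 8.64 in Control mice of run 1. T cell markers, 5 of 5 measured, had means of 5.97 to 6.22 in AdipoQ-LPL and 6.00 to 6.62 in Control mice of run 2, and 5.53 to 5.91 in AdipoQ-LPL and 5.44 to 5.73 in Control mice of run 1. All 5 T cell genes were above 0 in run 1, but 2 of them were also above 0 in run 2. In each run 2 of them passed an unadjusted p under 0.05 (limma). Of all clusters 4.14% were higher at that p in run 1, and 6.5% higher and 2.88% lower in run 2. Skeletal muscle markers, 3 of 5 measured, had means of 6.88 to 7.15 in AdipoQ-LPL and 6.78 to 8.21 in Control mice of run 2. In run 1 they had 6.38 to 6.89 in AdipoQ-LPL and 6.35 to 6.94 in Control mice. Control replicate 6 was highest in skeletal muscle, brown or beige adipocyte and epididymis markers, and also had the highest ribosome mean of all mice, 7.99. No marker of any list was called at an adjusted p under 0.05 with the run as a block. The part of these markers in the members' values was not tested.

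Genes that work beside the members, or in the same complexes under symbols outside the rule, were taken from lists of known partners. Mrp63 of the mitochondrial ribosome is among them, so these lists are not wholly separate from the members. So is Fxc1, an older symbol of the small Timm gene Timm10b, which stood at 0.035 ± 0.092 (SE). Of 37 measured partners in mitochondrial transcription and translation 1 passed an unadjusted p of 0.05 with the run as a block, and none an adjusted one, where 2.5% of all clusters were lower and 5.87% higher at that unadjusted p. It was Tfam, which packages mitochondrial DNA and starts its transcription, at -0.14 (adjusted p = 0.59), followed below 0 by Mterfd1, a factor of mitochondrial ribosome assembly, at -0.090. Of 24 measured import partners 1 passed an unadjusted p of 0.05, Immp2l, a subunit of the inner membrane peptidase, at 0.12 (adjusted p = 0.53), followed above 0 by Agk, a lipid kinase that is also part of the TIM22 complex, at 0.079. The medians of the partner lists were -0.024 and -0.033. The interaction lay above 0 for 34 of 37 and 22 of 24 partners. It did so for 74 of 79 subunits of oxidative phosphorylation, whose median difference was 0.052 in run 2 and -0.075 in run 1, and for 35 of 76 cytosolic ribosomal proteins.

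The members varied together from mouse to mouse after genotype, run and their interaction were taken out. Over 24 mice the median correlation between pairs was 0.28 within the ribosome list, 0.27 within the import list and 0.25 between them, with 83.9%, 84.0% and 82.1% of pairs above 0. The ribosome list had a median of 0.26 with the subunits of oxidative phosphorylation, -0.056 with the cytosolic ribosomal proteins and 0.035 with all clusters. The small Timm chaperones were less tied to each other, with a median of 0.057, than to the ribosome list, with 0.19. Mrpl49 (0.49), Mrpl18 (0.49), Mrpl51 (0.48), Mrps5 (0.48) and Mrpl35 (0.47) had the highest median correlation with the ribosome genes, while Tomm20 (-0.074), Mrpl46 (-0.062) and Mrps18c (-0.051) had the lowest. These values share arrays and normalization and are given as a description.

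**Figure D5:**
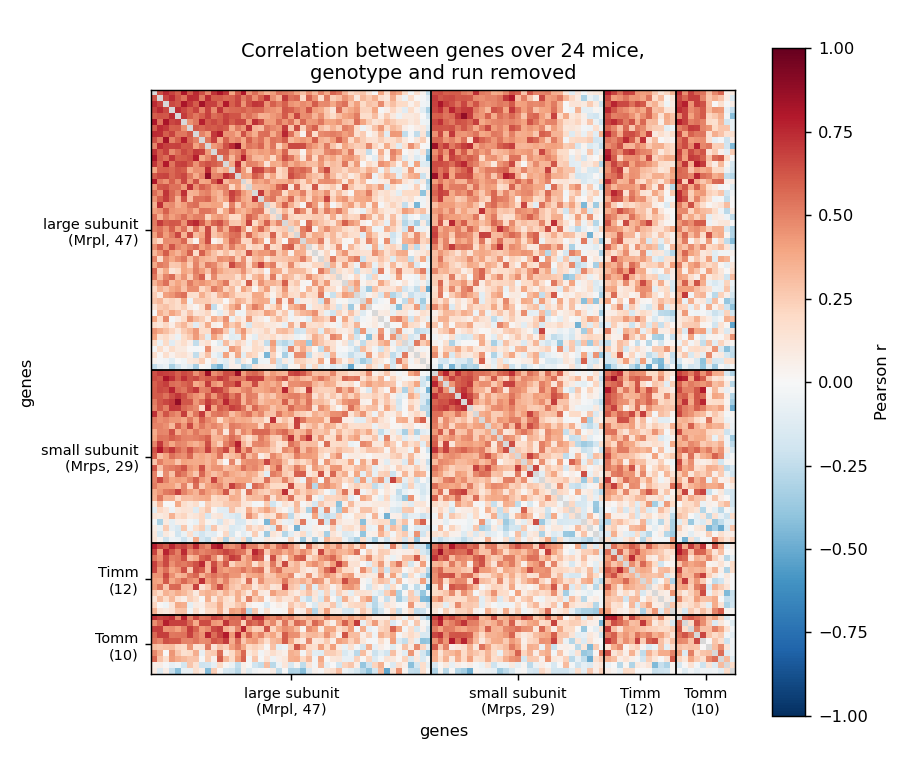
Pearson correlation of each pair of the 98 genes over 24 mice after genotype, run and their interaction were removed, on a scale of -1 (blue) to 1 (red). Genes are grouped by subunit and membrane and ordered within each group by their median correlation with the ribosome genes; the median within the ribosome list is 0.28.

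Promoters were found for 87 of the 98 genes, and at least 1 of the 3 motifs stood in 48 of them (55.2%), against 24.3% of the 12374 tested genes with a promoter. NRF1 letters stood in 12 of 67 ribosome promoters (17.9%) and 2 of 20 import promoters (10.0%), against 8.95% of all. GABP letters stood in 24 (35.8%) and 7 (35%), against 15.6%, and YY1 letters in 8 (11.9%) and 1 (5.0%), against 2.64%. Oxidative phosphorylation subunits with a promoter held NRF1 letters in 23.8%, GABP letters in 25.4% and YY1 letters in 11.1%. Cytosolic ribosomal proteins held them in 9.26%, 40.7% and 3.7%. The motifs were thus not particular to the members. In no member promoter did a GABP and a YY1 match overlap. A match is a count of letters in this window and not a site shown to be bound.

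Many members start close to another gene on the opposite strand. Such a neighbour lay within 1000 bases upstream of the start for 25 of 67 ribosome genes (37.3%) and 5 of 20 import genes (25%), against 16.5% of all tested genes with a promoter. The share was 27.0% for subunits of oxidative phosphorylation and 18.5% for cytosolic ribosomal proteins. Mrpl46 and Mrps11 face each other at 42 bases, Timm8b faces Sdhd, a subunit of succinate dehydrogenase, at 52, and Mrpl18 faces Tcp1, a subunit of the cytosolic chaperonin, at 238. Of the 27 pairs with both genes measured, the residual correlation had a median of 0.035, and ranged from -0.34 for Timm9 and 2700049A03Rik to 0.70 for Mrpl18 and Tcp1. Here the interaction of genotype and run was left in, unlike in the correlations between lists above. The neighbour of Timm9 stood at -0.017 with the run as a block, beside -0.28 for Timm9, and that of Mrps18b, Ppp1r10, at -0.15, beside -0.18 for Mrps18b.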

How the data were processed

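RMA was applied to the arrays by the authors, and the matrix as deposited gives log2 values for 41345 transcript clusters, 27037 of them with a gene symbol taken from the authors' Partek workbook. That deposited workbook also lists log2 group means, p-values, a ratio, a fold change, a test statistic (score) and marker numbers (another kind of unit), none of which was used for the results above. Its group means were not the means of the matrix values. The difference between them had an SD over clusters of 0.35 for AdipoQ-LPL and 0.34 for Control mice, and its cause was not tested. Neither the genome build nor the versions of RMA and Partek were stated.

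A gene with several clusters (11 of 98) is given by the cluster of highest mean. limma 3.58.1 (statmod 1.5.0, R 4.3.3) was fitted with genotype and run to every cluster that has a symbol and a mean of 5 or more in a genotype, two-sided, with Benjamini-Hochberg adjustment over all 20208 clusters and a threshold of 0.05. The same was done within each run and with a genotype by run interaction. Alternatives were no run, a random run, a replicate block, other floors, centred or quantile-normalized arrays, array weights, a trended robust prior, the methods' t-test, the mean over clusters, and omission of mice. Correlations within and between lists used residuals after genotype, run and their interaction. Those of promoter neighbours used residuals after genotype and run alone. Promoters came from RefSeq (GRCm38.p6). Motifs and figures used Python 3.11.15, numpy 2.4.6, pandas 2.3.3 and matplotlib 3.10.9.

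The genes to be named were the 6 ribosome and 4 import genes of lowest p in each direction, the small Timm chaperones, Mrps27, the 2 partners of lowest p in each direction and Lpl; further genes were named after their values were seen. The members and lists were chosen with earlier results of these data known. Of the methods, only the limma fit with the run as a block was tested on simulated data. Precision is limited by the number of arrays, 1 for each mouse. Same-numbered replicates did not vary together (1 of 12 pairs with a correlation over 0.1), so they are not pairs.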

Additional observations from a re-analysis of the deposited data

Results flagged for a closer look

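Within each run and genotype, groups of 4 to 10 mice were checked for a mouse far from the others, for the named genes and the means of both lists. Of 124 groups 7 held one, where chance alone gives about 5% of groups. Mrps16 was low in AdipoQ-LPL replicate 10 of run 1 at 6.68, with the next mouse at 7.06, and in Control replicate 9 of run 2 at 7.49, with the next at 7.85. Mrps33 was high in AdipoQ-LPL replicate 5 of run 1 at 7.73, with the next mouse at 7.56. Mrpl14 was high in AdipoQ-LPL replicate 2 of run 2 at 7.45, with the next at 7.15, and its difference was 0.020 without that mouse and 0.065 with it. Mrps18b was low in AdipoQ-LPL replicate 1 of run 2 at 7.95, with the next at 8.18. Mrpl21 was low in Control replicate 9 of run 2 at 7.70, with the next at 7.83. Tomm34 was low in Control replicate 3 of run 1 at 8.79, with the next at 8.91.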

How the results depend on the processing

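No member was called at an adjusted p under 0.05 under any alternative run, and of 375 values of named genes 347 kept their direction. Without the run, by limma and by the methods' t-test alike, the ribosome median was -0.10, 71 ribosome genes lay below 0, and 2 ribosome and 2 import genes were lower at an unadjusted p under 0.05 (4.74% of all clusters by limma, 4.7% by the t-test). The direction of these genes turned there: Mrps16 (-0.14), Mrps33 (-0.10), Mrpl14 (-0.082), Mrps36 (-0.13), Tomm7 (-0.050), Tomm20l (-0.0053), Timm8a1 (-0.022), Timm8b (-0.0050), Mrps27 (-0.15) and Agk (-0.037). Lower genes at an unadjusted p under 0.05 with the run as a block were 0 in the ribosome list with centred arrays (1.44% of all clusters), without the 3 Control mice high in epididymis markers (2.56%) and without the AdipoQ-LPL mice numbered 422 to 437 (2.1%), and 2 in the import list with array weights (2.89%). Without the mice numbered 422 to 437, 20 ribosome and 9 import genes lay below 0 with the block, 38 ribosome genes did so in run 1, 2 ribosome genes and 1 import gene were lower there at that p (0.904%), and the interaction passed for 2 and 1 (1.91%). In run 1, 4 ribosome genes were lower at that p with centred arrays (2.77%), as without the 3 Control mice (3.1%), of which only replicate 5 is in run 1. In run 2, 10 ribosome and 2 import genes were higher with centred arrays (9.99%), and 8 and 2 with quantile normalization (7.3%). Centring moved the share of all clusters below 0 with the block to 38.1%, against 46.3%. The interaction passed for 16 ribosome genes with quantile normalization (6.11%) and 2 import genes without the 3 Control mice (4.18%). Array weights turned Tomm34 (-0.0035), Timm8b (-0.0085) and Mrps27 (-0.017), a random block Mrps27 (-0.0063), the mean over clusters Mrps16 (-0.020), Timm8a1 (-0.083) and Lpl (0.017), and the omission of mice 422 to 437 Mrpl21 (0.027). The cause was not tested. Omitting the 3 Control mice, omitting mice 422 to 437 within run 1, and all alternatives for the interaction, were chosen after seeing the data.

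Without single mice, lower genes at an unadjusted p under 0.05 numbered 0 to 2 and 1 to 2 (ribosome and import) with the run as a block (1.8% to 3.51% of all clusters), and 2 to 17 and 3 to 8 in run 1 (2.44% to 7.02%). Higher genes in run 2 numbered 3 to 7 and 1 to 3 (4.42% to 7.46%), and the interaction passed for 5 to 23 and 2 to 8 (3.51% to 9.23%). The differences spanned -0.00085 to 0.024 for Tomm34, -0.033 to 0.012 for Timm13, -0.020 to 0.022 for Timm8b and -0.039 to 0.038 for Mrps27. With a replicate block the medians were -0.0064 and -0.032, and no call changed.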
